A study of Homo sapiens with 36 samples.

Results

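The transcripts of H1975 cells given MinE07 were compared with those of H1975 cells given C36. The 6 libraries were taken by their titles, 3 for each aptamer, from the 36 libraries of the series. Of the 66366 genes in the files, the 14196 with a mean of at least 1 FPKM over the 6 libraries were tested, and 11100 of these are protein coding in RefSeq. FPKM is a count of fragments per gene, divided by gene length and by the size of the library. At the edge of that threshold, LOC105374651 had a mean of 1.00 FPKM and was tested, and LOC100129534 had 0.99993 FPKM and was not.

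H1975 is an established line of non-small cell lung cancer whose EGFR carries L858R, an activating change in the kinase, and T790M, which lowers the binding of early EGFR inhibitors. MinE07 is an aptamer made of RNA that folds so as to grip the outer part of EGFR. C36 is the control aptamer, used in an extended form, and the third group was given vehicle, DPBS with magnesium. All 3 groups were cells of the same line, seeded at about 10000 per well of a 48-well plate and treated 24 h later in RPMI with 1% serum, with 3 µM of aptamer where one was given, for 24 h. The series record calls the 3 libraries of a group biologically independent experiments. A single line stands for its EGFR genotype and its whole background at once, and these cannot be told apart within it.

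EGFR passes growth signals along the RAS and MAP kinase cascade and along PI3K and AKT. AKT keeps FOXO transcription factors out of the nucleus, and when its activity is low FOXO factors enter and raise genes of quiescence, catabolism and autophagy. MYC and mTORC1, which act downstream of both branches, are known for driving ribosome production, nucleotide synthesis and protein folding capacity. The genes described below are grouped by such functions. The MAPK output, interferon, cell cycle and p53 lists were kept apart.

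The cells carried the transcripts of an epithelial line. All 6 epithelial markers (EPCAM, CDH1, KRT7, KRT8, KRT18, KRT19) were above 1 FPKM in all 9 H1975 libraries, and their sum was 2077 to 2171 FPKM with MinE07, 1966 to 2045 with C36 and 1957 to 2174 with vehicle. All 6 endothelial markers were under 1 FPKM in every library. Of the 6 leukocyte markers 4 were too, among them PTPRC and LYZ, while CD14 was above 1 FPKM in every library and CD68, a lysosomal protein that is not limited to leukocytes, made up most of a sum of 61.0 to 65.1 FPKM with MinE07, 62.2 to 64.0 with C36 and 62.2 to 63.1 with vehicle. The files hold no counts. Relative depth, computed from the smallest steps between low values, ran from 0.744 (MinE07 replicate 3) to 1.22 (C36 replicate 1) of the middle H1975 library. C36 replicate 1 stood apart in another way: the mitochondrial mRNAs ATP6, ATP8 and COX3 were listed at 0 in it, and its summed FPKM of 397132 was below the 421040 to 434996 of the other 8 libraries. Because the samples are bulk RNA, fewer cells of a kind and less RNA per cell cannot be told apart.

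With MinE07, 1274 genes were higher than with C36 (8.97% of those tested) and 1577 were lower (11.1%), at a limma adjusted p under 0.05. Together these are 20.1% of the tested genes. The shares of 8.97% and 11.1% are the baseline for every list count below. The changes were mostly small: the median size among called genes was 0.21 on the scale used throughout, log2(FPKM + 0.5), which understates the change of genes near 1 FPKM. Of the called genes, 68 were higher by at least 0.5, 32 were lower by at least 0.5, 2 were higher by at least 1 and 0 were lower by that much. The median over all tested genes was -0.01. Without C36 replicate 1 the call count was 1902, without C36 replicate 2 it was 1737 and without MinE07 replicate 3 it was 1871. The 3 MinE07 libraries lay wholly above the 3 C36 libraries in 18.8% of tested genes and wholly below them in 21.6%. The genes with the largest changes, described next, were picked from called genes without overlap, so their separation from C36 was a condition.

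CCN5, a secreted matricellular protein of the CCN family known for restraining proliferation and for lacking the C-terminal domain of its relatives, showed one of the 2 largest rises. It was read at 24.6, 24.7 and 23.5 FPKM with MinE07, 10.3, 10.2 and 9.79 with C36 and 9.99, 10.2 and 9.25 with vehicle. The MinE07 libraries lay far above the other 6, which overlapped. The difference from C36 was 1.22 (SE 0.042, limma adjusted p 9.57e-07). SELENOP, the secreted carrier of selenium, rose by the same amount, 1.22 (SE 0.065, limma adjusted p 1.62e-05). Its values were 2.20, 1.93 and 2.14 FPKM with MinE07, 0.601, 0.611 and 0.628 with C36 and 1.05, 1.16 and 0.992 with vehicle. The 3 groups did not overlap, with vehicle in between: C36 was lower than vehicle by 0.49 (adjusted p 0.0316), a call lost with a replicate block (0.104), with no filter (0.0981) and without any 1 C36 library, MinE07 replicate 3 or vehicle replicate 2 or 3, and MinE07 was higher than vehicle by 0.73 (adjusted p 0.000153).

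PIK3IP1 is a membrane protein that inhibits the catalytic subunit of PI3K. Its level was 4.97, 4.60 and 4.86 FPKM with MinE07, 2.26, 2.32 and 2.49 with C36 and 2.45, 2.25 and 2.56 with vehicle, a difference between the aptamers of 0.89 (SE 0.055, limma adjusted p 2.88e-05). All MinE07 libraries were above all others, and C36 and vehicle overlapped. TMEM86A, a lysoplasmalogenase, was at 3.17, 3.07 and 3.38 FPKM with MinE07 against 1.47, 1.40 and 1.39 with C36, a rise of 0.95 (SE 0.06, limma adjusted p 2.88e-05). NFE2, a transcription factor best known from the platelet lineage, was at 4.43, 3.72 and 4.21 FPKM against 2.02, 1.60 and 2.20, a rise of 0.93 (SE 0.097, limma adjusted p 0.000296). In both genes the MinE07 libraries lay above the C36 and the vehicle libraries. For NFE2 vehicle lay between the aptamers, and the change against vehicle was 0.62.

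The other genes with the largest rises mix secreted proteins, junction proteins and a death ligand. AGT, the precursor of angiotensin, was at 1.72 ± 0.165 FPKM (SD, n = 3) with MinE07 and 0.751 ± 0.0505 with C36. TJP3, a scaffold of tight junctions, was at 3.92 ± 0.123 and 2.00 ± 0.192 FPKM. TNFSF10, the death ligand TRAIL, was at 1.88 ± 0.343 and 0.852 ± 0.141 FPKM. Their log2 differences were 0.83, 0.82 and 0.81, with limma adjusted p-values of 0.000193, 7.67e-05 and 0.00164. For these 3 genes vehicle lay between the aptamers, at means of 0.955 ± 0.111, 2.41 ± 0.136 and 1.24 ± 0.184 FPKM, and the difference from vehicle was smaller, 0.61, 0.60 and 0.44. ZSCAN31, a zinc finger protein, rose by 0.78 and CLIC3, a chloride channel protein of endosomes, by 0.78, with C36 and vehicle overlapping in both. ANXA8 and C4B, at 0.77 and 0.73, have further near-identical copies in the files, so how their reads were shared out is uncertain. For C4B vehicle lay between the aptamers, and the change against vehicle was 0.54.

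Among the genes that fell, PTX3, a secreted pattern recognition protein of the pentraxin family, changed most. It was at 1.27, 0.915 and 0.994 FPKM with MinE07, 2.42, 2.77 and 2.40 with C36 and 2.73, 2.79 and 2.86 with vehicle. The MinE07 libraries were the 3 lowest, and the C36 and vehicle libraries overlapped. PTX3 fell by 0.96 (SE 0.084, limma adjusted p 0.000125). TMEM158, a membrane protein induced by RAS, was at 15.3, 16.1 and 14.5 FPKM with MinE07 against 26.9, 26.8 and 28.3 with C36 and fell by 0.82 (SE 0.052, limma adjusted p 2.88e-05). TNFRSF6B, a soluble decoy receptor for FAS ligand, was at 20.3, 19.1 and 18.8 FPKM against 32.9, 34.5 and 36.2 and fell by 0.81 (SE 0.045, limma adjusted p 1.75e-05). Neither gene's MinE07 libraries reached any C36 or vehicle library. For TNFRSF6B vehicle lay between the aptamers, and the change against vehicle was -0.65.

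RGS4, which shortens signalling through G proteins, was at 5.40 ± 0.336 FPKM (SD, n = 3) in the MinE07 libraries, at 9.12 ± 0.0936 in those with C36 and at 10.2 ± 0.348 in those with vehicle. It fell by 0.71 between the aptamers (limma adjusted p 2.88e-05). IGFBP4, which binds insulin-like growth factors, was at 12.2, 13.8 and 13.6 FPKM with MinE07 against 21.9, 20.7 and 21.7 with C36 and fell by 0.68 (limma adjusted p 7.22e-05). The remaining 7 of the 12 largest falls were COL13A1, a transmembrane collagen, at -0.66, PAM16, a subunit of the mitochondrial import motor, at -0.60, ACOX2, a peroxisomal oxidase, at -0.59, AMOTL1, an angiomotin that binds YAP, at -0.58, TGM2, a protein crosslinking enzyme, at -0.58, MARCHF4, a ubiquitin ligase of the Golgi, at -0.57, and ANGPTL4, a secreted inhibitor of lipoprotein lipase, at -0.54. Their limma adjusted p-values ran from 1.75e-05 (TGM2) to 0.000764 (PAM16), and PAM16 has further copies in the files. For PAM16, TGM2 and ANGPTL4 vehicle lay between the aptamers, and the changes against vehicle were -0.31, -0.45 and -0.38. All 24 genes kept their call under every alternative in which they were tested, among them leaving out each library: 19 alternatives for 11 of the genes and 18 for the 13 that fall below a minimum mean of 5 FPKM.

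**Figure D1:**
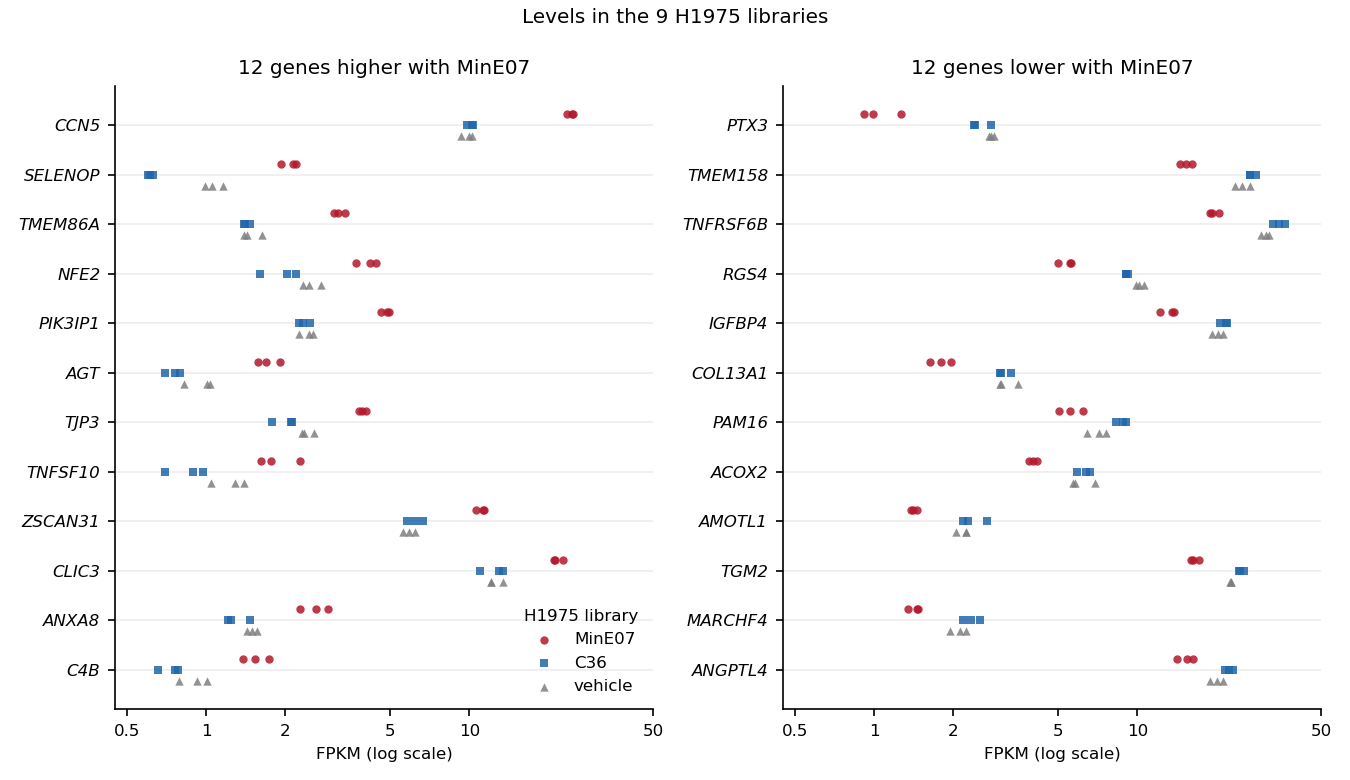
FPKM (log axis) of the 12 genes with the largest rise and the 12 with the largest fall between MinE07 and C36; each point is 1 of the 9 H1975 libraries, coloured by treatment. The genes were chosen so that the 3 MinE07 points lie apart from the 3 C36 points. The vehicle points lie between the aptamers for SELENOP, NFE2, AGT, TJP3, TNFSF10, C4B, TNFRSF6B, PAM16, TGM2 and ANGPTL4.

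The receptor's own transcript did not pass the test. EGFR was at 23.7, 23.8 and 23.9 FPKM with MinE07, 25.1, 27.2 and 24.9 with C36 and 24.6, 27.8 and 25.9 with vehicle, a difference from C36 of -0.11 (SE 0.047, limma adjusted p 0.137) that was not called. ERBB2 was at 21.4, 21.9 and 21.2 FPKM against 20.0, 19.3 and 20.2, a difference of 0.12 (adjusted p 0.0556) that was not called either, although 5 of the 19 alternatives called it. ERBB3, the partner receptor that couples to PI3K, was at 10.6, 10.3 and 9.74 FPKM against 8.58, 8.51 and 8.56 and rose by 0.24 (SE 0.035, limma adjusted p 0.0015). Of 20 tested receptor tyrosine kinases 3 rose and 1 fell: besides ERBB3, PDGFRB rose by 0.38 from a mean of 0.887 ± 0.0916 FPKM and DDR1, a collagen receptor with further copies in the files, by 0.23. AXL was the gene that fell, by 0.15 (limma adjusted p 0.0346), and its call was lost without C36 replicate 1 or 2 or MinE07 replicate 1 or 3. Over all tested genes 8.97% rose and 11.1% fell. Of 30 genes of receptor endocytosis and sorting, 1 rose and 3 fell (3.33% and 10%). Among these, ERRFI1, an inhibitor of the EGFR kinase that MAP kinase signalling induces, fell by 0.21, and EPN2, an endocytic adaptor, by 0.20.

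Because the lists and members were chosen with earlier results of these data known, the ranking of lists is descriptive only. The FOXO-responsive list had the largest share of members called higher of the lists described. Of its 28 genes 23 were tested, 17 rose (73.9%), 0 fell (0 also at an unadjusted limma p under 0.05), and the median change was 0.23 against -0.01 over all tested genes. Besides SELENOP and PIK3IP1, the largest rises were in YPEL3, FBXO32 and GABARAPL1. YPEL3, which promotes growth arrest, was at 21.6, 21.7 and 21.0 FPKM with MinE07 against 14.3, 13.9 and 14.6 with C36, a rise of 0.57 (SE 0.036, limma adjusted p 2.88e-05). FBXO32, the ubiquitin ligase atrogin-1, was at 16.6, 16.4 and 15.9 FPKM against 10.9, 10.9 and 10.7, a rise of 0.57 (SE 0.03, limma adjusted p 1.62e-05). GABARAPL1, an autophagosome protein, was at 8.69, 7.73 and 8.07 FPKM against 5.54, 5.02 and 5.88, a rise of 0.54 (SE 0.059, limma adjusted p 0.000404). In none of the 3 did a MinE07 library overlap a C36 or vehicle library.

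The 3 tested YPEL genes of that list, a subset picked after their values were seen, all rose, by 0.38 to 0.57. The mid-sized changes were PDK4 at 0.27, KLF9 at 0.24, CAT (catalase) at 0.24, FOXO4 itself at 0.23, BCL6 at 0.21, CCNG2 at 0.21 and TXNIP, the glucose-responsive inhibitor of thioredoxin, at 0.21, all called. TXNIP was not called in the fit of all 36 libraries (adjusted p 0.165), and PDK4 was not called without C36 replicate 2 or MinE07 replicate 1 or 3. FOXO4 was not called without C36 replicate 2 or 3 or MinE07 replicate 2 or 3, nor BCL6 without C36 replicate 1 or 3 or MinE07 replicate 1 or 3. FOXO3, INSR, IRS2, RICTOR, SOD2 and TRIB1 did not pass the test, with changes of 0.07, 0.09, 0.00, 0.00, 0.00 and 0.03. Against vehicle, a comparison that shares the MinE07 libraries, 13 of the 23 rose and 0 fell. C36 was lower than vehicle in 2 of the 23, SELENOP and CITED2, a co-activator (-0.21, adjusted p 0.0433). The CITED2 call was lost with a replicate block (0.104), with no filter (0.131), with neither trend nor robust moderation (0.0776) and without any 1 library other than vehicle replicate 1.

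The promoters of 3 of the genes with the largest rises on that list are given here, because each holds the core of the motif that FOXO proteins bind. They are RefSeq windows of 300 bases (250 before the annotated start and 50 after it, GRCh38.p14, written 5′ to 3′ on the gene's strand), and the capitals mark GTAAACA or its reverse complement TGTTTAC, searched on both strands. SELENOP lies at chr5:42811843-42812142 on the minus strand, PIK3IP1 at chr22:31292439-31292738 on the minus strand and YPEL3 at chr16:30096164-30096463 on the minus strand.
SELENOP: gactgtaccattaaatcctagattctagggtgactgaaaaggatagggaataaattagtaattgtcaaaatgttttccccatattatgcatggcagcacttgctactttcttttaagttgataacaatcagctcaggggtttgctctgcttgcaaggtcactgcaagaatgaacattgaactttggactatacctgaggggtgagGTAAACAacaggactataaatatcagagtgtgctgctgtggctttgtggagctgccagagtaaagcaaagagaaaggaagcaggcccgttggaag
PIK3IP1: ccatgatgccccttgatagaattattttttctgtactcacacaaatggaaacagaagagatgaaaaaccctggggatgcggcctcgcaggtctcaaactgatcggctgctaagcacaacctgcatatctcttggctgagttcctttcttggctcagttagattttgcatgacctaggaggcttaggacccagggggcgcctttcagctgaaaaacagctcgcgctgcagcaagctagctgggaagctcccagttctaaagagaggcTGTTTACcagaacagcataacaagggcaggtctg
YPEL3: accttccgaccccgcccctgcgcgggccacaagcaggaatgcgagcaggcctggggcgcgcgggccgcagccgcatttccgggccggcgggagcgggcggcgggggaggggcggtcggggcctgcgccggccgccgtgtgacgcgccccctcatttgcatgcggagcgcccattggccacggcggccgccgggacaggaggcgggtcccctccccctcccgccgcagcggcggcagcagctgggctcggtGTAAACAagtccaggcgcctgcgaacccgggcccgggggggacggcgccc

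Of the 28 listed genes 20 tested ones have a window in the table. The motif was in 5 of the 20 (25%), FOXO4, PIK3IP1, SELENOP, TXNIP and YPEL3, all of which rose. Of the 23 tested members of the list 17 rose (73.9%). The motif was in 3.48% of the 9750 tested genes with a window and in 3.42% of all 35116 windows. The matches stand 45 bases before the start in SELENOP, 16 bases after it in PIK3IP1 and at the start in YPEL3. A match of this length describes the letters only. The window of GABARAPL1 does not hold it.

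**Figure D2:**
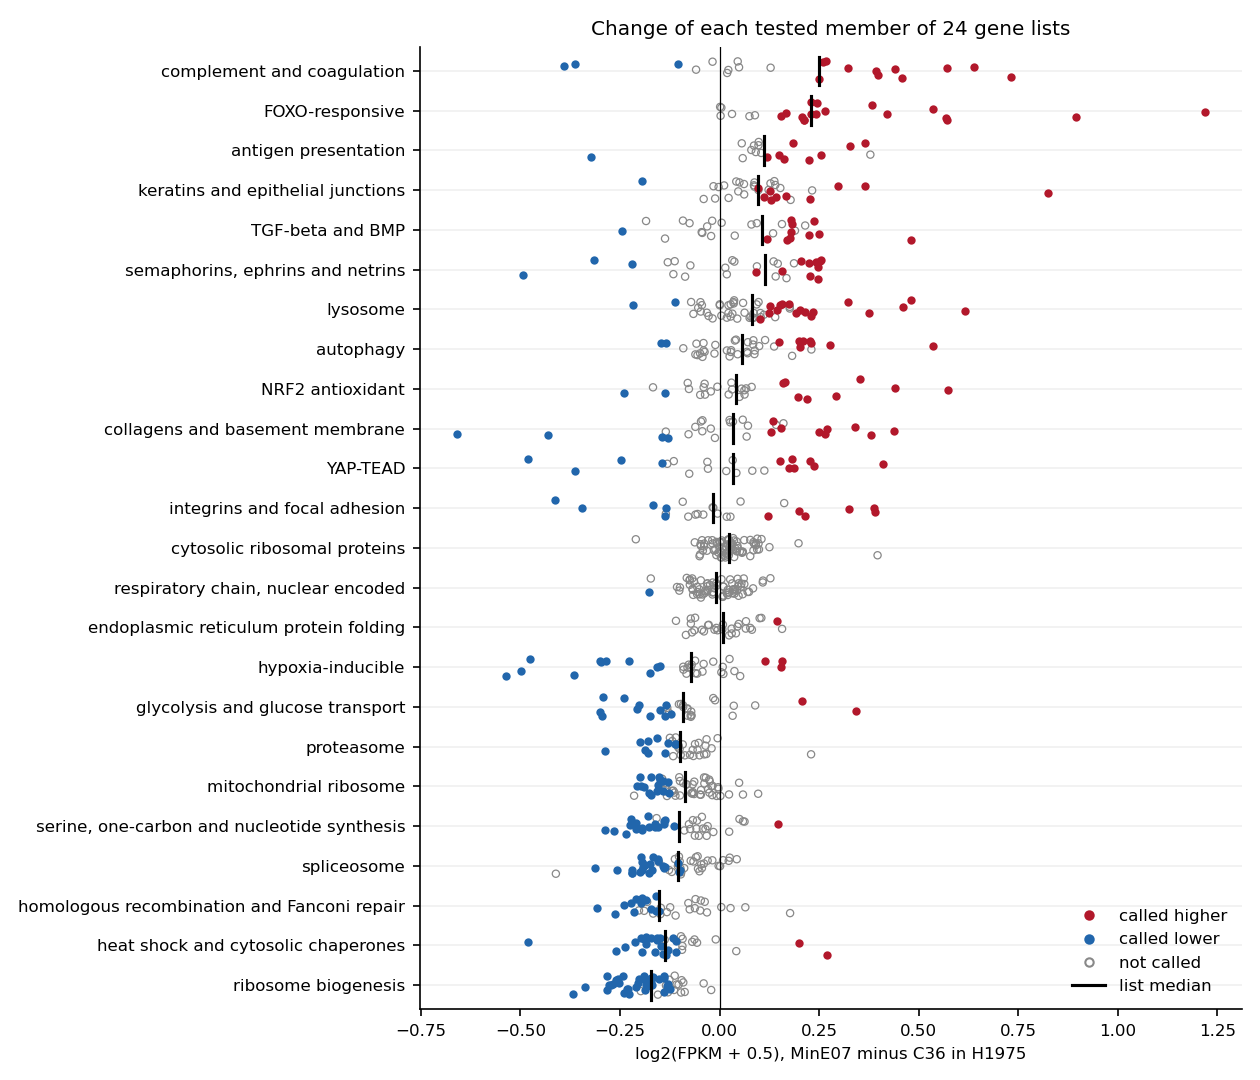
Change between MinE07 and C36 in H1975, log2(FPKM + 0.5), of every tested member of 24 gene lists; each point is a gene, filled where it was called, and the black bar is the list's median. Complement and coagulation (median 0.25) and FOXO-responsive genes (0.23) lie furthest right, ribosome biogenesis genes (-0.17) furthest left, and cytosolic ribosomal proteins (0.02) lie around 0.

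Genes of complement and coagulation rose more often than they fell. Complement is a set of secreted proteins, made mainly by liver but also by epithelium, that tag surfaces for lysis and engulfment. Of 21 tested genes of complement and coagulation 11 rose and 3 fell, with a median change of 0.25. With a minimum mean of 5 FPKM in place of 1, 4 of 12 rose, 2 fell and the median was 0.05. The 7 complement components tested (C1R, C1RL, C1S, C3, C4A, C4B and the protease CFI), a subset picked after their values were seen, all rose, by 0.27 to 0.73. C3, the central component, was at 21.3, 19.6 and 20.7 FPKM with MinE07, 13.4, 13.2 and 14.3 with C36 and 13.2, 14.1 and 14.4 with vehicle. All 3 MinE07 libraries were above the other 6, and C3 rose by 0.57 (SE 0.046, limma adjusted p 9.04e-05). CFI was at 2.88, 2.74 and 2.92 FPKM with MinE07, 1.88, 1.94 and 2.09 with C36 and 2.06, 2.43 and 2.61 with vehicle, and rose by 0.44 (limma adjusted p 0.00281).

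C4A and C4B are near-identical neighbours with further copies in the files, so their values of 0.64 and 0.73 may share reads. CLU, a chaperone that also blocks the lytic complement complex, was at 18.0, 18.1 and 18.7 FPKM against 13.2, 13.3 and 13.1 and rose by 0.46 (SE 0.031, limma adjusted p 3.42e-05). Of the 3 regulators on the cell membrane CD59 rose, by 0.25, while CD55 (0.13) and CD46 (0.02) did not pass the test. On the coagulation side the genes that fell were F3, the tissue factor that starts clotting, by 0.36 (from 15.1 ± 0.569 to 11.7 ± 1.20 FPKM), TFPI2, a protease inhibitor, by 0.39, and F2RL1, a protease receptor, by 0.10. The call of F2RL1 (limma adjusted p 0.0458) was lost without any 1 of 7 libraries. Against vehicle, 11 members of the list rose and 4 fell.

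**Figure D3:**
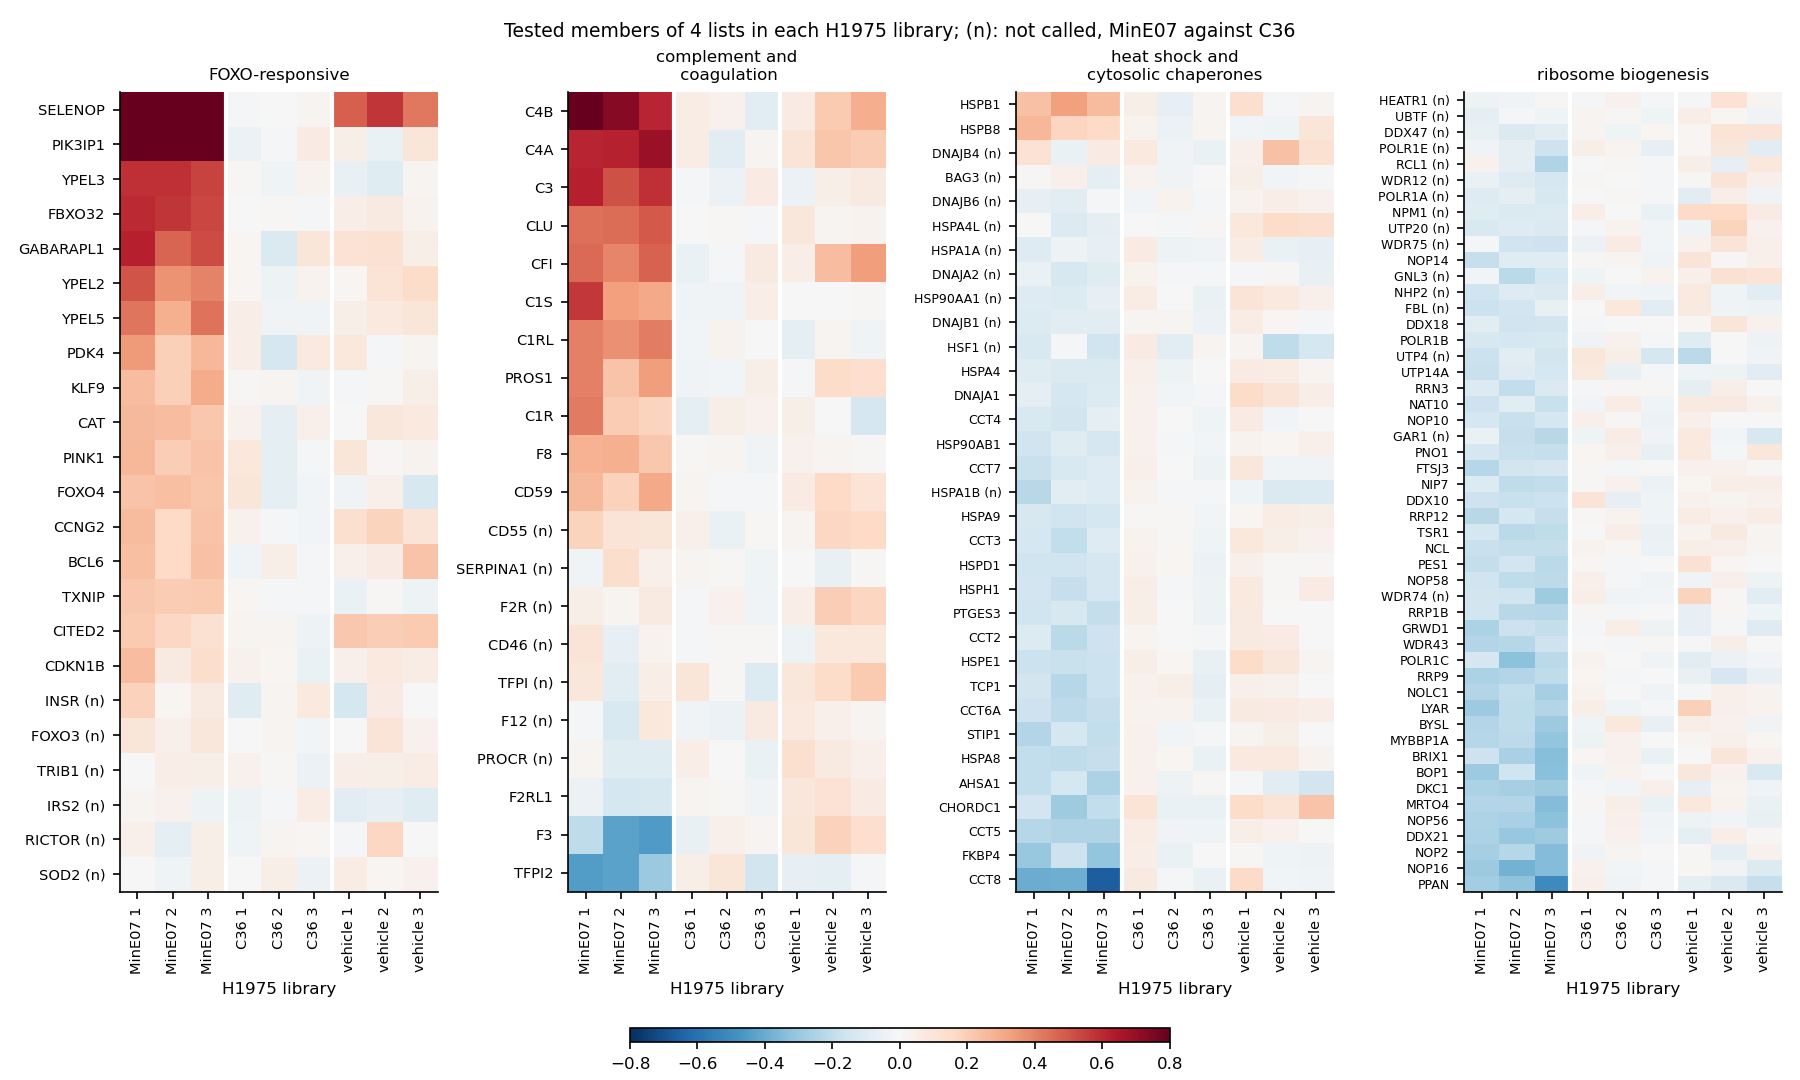
Level of each tested member of 4 lists in the 9 H1975 libraries, as log2(FPKM + 0.5) minus the mean of the 3 C36 libraries; the colour stops at 0.8 either way, and (n) marks genes not called between MinE07 and C36. The 3 MinE07 columns are red for 17 called FOXO-responsive genes and blue for 34 called ribosome biogenesis genes, and the vehicle columns are close to C36 for most genes, with SELENOP an exception.

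Antigen presentation moved less. Of 18 tested genes 8 rose and 1 fell. CD74, the invariant chain of MHC class II, was at 42.0, 42.9 and 42.3 FPKM with MinE07 against 33.6, 31.7 and 33.1 with C36, a rise of 0.36 (SE 0.031, limma adjusted p 0.000115), with no overlap. CIITA, the transactivator of MHC class II, rose by 0.33 from 0.919 ± 0.0661 FPKM, and HLA-E, a nonclassical class I molecule, by 0.22. HLA-B (0.10) and HLA-C (0.09) did not pass the test. CD274, the checkpoint ligand PD-L1, fell by 0.32, from 3.71 ± 0.0814 to 2.86 ± 0.0898 FPKM (limma adjusted p 0.00851). The count of 8 rises was 3 without C36 replicate 2 or MinE07 replicate 3, 4 without C36 replicate 3 or MinE07 replicate 1, and 5 without MinE07 replicate 2 or vehicle replicate 2. Of 18 inflammatory genes 1 rose and 3 fell (5.56% and 16.7%, against 8.97% and 11.1% of all tested genes). Besides PTX3, the chemokine CX3CL1 fell by 0.34 and IL6, at 1.37 ± 0.155 FPKM with C36, by 0.40, a call (limma adjusted p 0.0433) that was lost without any 1 of the MinE07 or the first 2 C36 libraries or vehicle replicate 3.

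Lysosome genes rose more often than they fell. Of 56 tested lysosome genes 17 rose and 2 fell, and the median change was 0.08. CTSH, a cysteine protease, was at 9.49, 8.92 and 8.57 FPKM with MinE07, 5.83, 6.10 and 5.17 with C36 and 6.86, 5.93 and 6.09 with vehicle, a rise of 0.62 (SE 0.069, limma adjusted p 0.000422), and the MinE07 libraries were above all others. CTSS and CTSF, of the same family, rose by 0.48 and 0.32. Of 10 cathepsins 6 rose and 1 fell, and of 9 vacuolar ATPase genes 0 were called (1 at an unadjusted limma p under 0.05), with values from -0.04 to 0.09. Both subsets were picked after their values were seen. TFEB, the transcription factor that drives lysosome genes, was at 2.61 ± 0.131 FPKM with MinE07 against 1.76 ± 0.236 with C36 and rose by 0.46 (limma adjusted p 0.00474), while its relatives TFE3 (0.03) and MITF (0.03) did not pass the test.

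Of 40 autophagy genes 8 rose and 2 fell. After GABARAPL1 the largest rises were in WIPI1, which binds the growing membrane (0.28, limma adjusted p 0.00599), PINK1, the kinase that marks damaged mitochondria (0.23), and ULK1, the kinase that starts autophagy (0.23). OPTN, a cargo receptor, rose by 0.20. ATG12 fell by 0.14 and ATG16L1, which has further copies in the files, by 0.15, a call that was lost without any 1 C36 library or MinE07 replicate 2 or 3. BECN1 (0.05), ATG5 (0.07) and ATG7 (-0.01) did not pass the test.

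Epithelial and adhesion genes split by member. Of 33 keratins and junction genes 10 rose and 1 fell, with a median of 0.10. Besides TJP3, the epithelial transcription factor ELF3 was at 18.3 ± 0.567 FPKM with MinE07 against 14.1 ± 0.470 with C36 and rose by 0.36 (limma adjusted p 0.000368). F11R and JUP rose by 0.23 and 0.17, while TJP1 (0.02), KRT7 (0.05) and KRT18 (-0.04) did not pass the test. The count of 10 was 4 without C36 replicate 2 or MinE07 replicate 2 and 5 without C36 replicate 1 or 3 or MinE07 replicate 1. Of 13 tested genes of lung lineage 4 rose and 1 fell. NKX2-1, the lung lineage factor, was at 22.4 ± 0.610 FPKM against 17.2 ± 1.13 and rose by 0.37, MUC1, a surface mucin, by 0.37, and SLPI, a secreted antiprotease, by 0.42, with limma adjusted p-values of 0.00115, 0.00323 and 0.00158.

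Integrins moved in both directions, 6 of 24 genes up and 5 down. ITGB4, the laminin receptor subunit of hemidesmosomes, was at 14.0, 14.8 and 14.1 FPKM with MinE07, 10.9, 10.7 and 10.8 with C36 and 11.1, 11.6 and 11.3 with vehicle and rose by 0.39 (SE 0.033, limma adjusted p 0.000109). ITGA6, its partner subunit, was at 13.6, 13.6 and 13.3 FPKM with MinE07, 18.4, 18.5 and 17.6 with C36 and 18.8, 19.8 and 19.4 with vehicle and fell by 0.41 (SE 0.033, limma adjusted p 8.20e-05). The partners moved in opposite directions, each with no overlap between the aptamers. ITGA2, a collagen receptor subunit, fell by 0.35 and ITGB5 by 0.17. The adaptors TNS2 and KANK2 rose by 0.39 and 0.32.

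Of 29 tested collagen and basement membrane genes 9 rose and 4 fell. COL12A1 rose by 0.44, COL1A2 by 0.38, HSPG2 (perlecan) by 0.34 and COL1A1 by 0.27, while COL13A1 and LAMB1, a laminin chain, fell by 0.66 and 0.43. The call of COL1A1 was lost in the fit of all 36 libraries (limma adjusted p 0.0676). COL1A1 and COL1A2 are also fibroblast markers: the 6 fibroblast markers summed to 14.8 to 15.9 FPKM with MinE07, 11.3 to 13.0 with C36 and 11.2 to 12.3 with vehicle, while the other 4 (COL3A1, DCN, LUM and PDGFRA) were under 1 FPKM in every library. The part of such cells in these rises was not tested. Of 24 matricellular and secreted matrix genes 8 rose, among them VTN (vitronectin) by 0.43 and SPP1 (osteopontin) by 0.41, and 3 fell, IGFBP4, CD44 by 0.21 and SDC1 by 0.12. Those 8 rises were 4 without C36 replicate 1 and 5 without C36 replicate 2 or MinE07 replicate 1. SDC1 lost its call without C36 replicate 1 or 2 or MinE07 replicate 1 or 3. Of 25 proteases and inhibitors 5 rose and 7 fell. TIMP2, an inhibitor of metalloproteases, was at 55.8 ± 0.632 FPKM against 46.2 ± 0.571 and rose by 0.27, while PLAU (urokinase), ADAM8 and TIMP4 fell by 0.26, 0.45 and 0.41. The 5 rises were 2 or fewer without any 1 of the 6 aptamer libraries.

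The CCN family divided too. Of 4 tested members CCN5 and CCN3 rose, CCN3 from 4.01, 3.88 and 3.65 FPKM with C36 to 5.19, 4.56 and 5.23 with MinE07 (0.34, limma adjusted p 0.0033), CCN2 fell by 0.25 (limma adjusted p 0.00732) and CCN1 did not pass the test (-0.08, adjusted p 0.253). Against vehicle 2 of the 4 members rose and 0 fell, so the fall of CCN2 was not called there. CCN1 and CCN2 are direct targets of YAP and TEAD. Of 21 tested genes of that pathway 7 rose and 4 fell between the aptamers, and 4 rose and 2 fell against vehicle. ANKRD1, a much used reporter of it, rose by 0.41 (limma adjusted p 0.00866), whereas NT5E, the ectonucleotidase CD73, was at 37.5, 36.9 and 36.9 FPKM with MinE07 against 52.1, 53.1 and 50.8 with C36 and fell by 0.48 (SE 0.031, limma adjusted p 2.88e-05). Of 28 TGF-beta and BMP genes 10 rose and 1 fell, with a median of 0.11. ID2, an inhibitor of differentiation factors and a BMP target, was at 15.1 ± 1.26 FPKM against 10.6 ± 0.297 and rose by 0.48 (SE 0.054, limma adjusted p 0.000458). TGFBI, a secreted target of the pathway, rose by 0.22, and SMAD7 (-0.04) and TGFB1 (-0.02) did not pass the test. The 10 rises were 4 without C36 replicate 2 and 6 without MinE07 replicate 3.

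Among axon guidance genes 10 of 28 rose and 3 fell, the falls in SEMA7A (-0.49, with further copies in the files), EFNB2 (-0.32) and PLXNA1 (-0.22). The falls were 5 without vehicle replicate 1. The rises, up to 0.25 in SEMA3F, were 2 without MinE07 replicate 1, 4 without C36 replicate 1 or 3 or MinE07 replicate 3, and 6 without C36 replicate 2. Of 14 clock genes 2 rose and 1 fell (14.3% and 7.14%, against 8.97% and 11.1% of all tested genes). DBP, an output gene of the clock, rose by 0.44 and NPAS2 fell by 0.27. Of 17 Notch genes 2 rose and 4 fell (2 without C36 replicate 1 or MinE07 replicate 2), with NRARP, a direct Notch target, falling by 0.46 (limma adjusted p 0.000664). Of 27 transcription factors of the KLF, SOX and AP-1 kind 4 rose and 5 fell (3 without C36 replicate 2 or MinE07 replicate 3). The rises included SOX4 at 0.33 and SOX2, from a mean of 0.945 ± 0.0937 FPKM, at 0.40. The falls included MAFF at -0.32, SOX9 at -0.17 and HES1 at -0.16. S100A4, a calcium-binding protein of motile cells, rose by 0.52 and the cadherin CDH11 fell by 0.45.

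Metabolic lists leaned downward in the glucose and hypoxia branches. Of 33 tested hypoxia-inducible genes 11 fell and 3 rose (1 without C36 replicate 2), with a median of -0.07. CA9, a surface carbonic anhydrase, was at 13.4, 12.2 and 11.8 FPKM with MinE07, 18.3, 18.2 and 16.9 with C36 and 21.1, 20.1 and 18.7 with vehicle and fell by 0.50 (SE 0.058, limma adjusted p 0.000492). STC1, a secreted glycoprotein, was at 15.0, 13.6 and 15.0 FPKM with MinE07, 19.9, 20.6 and 20.7 with C36 and 21.5, 23.4 and 23.2 with vehicle and fell by 0.48 (SE 0.047, limma adjusted p 0.000228). In both genes the MinE07 libraries were the lowest 3, and C36 lay a little below vehicle without a call. ADM, VEGFA and BNIP3 fell by 0.37, 0.30 and 0.28, while HIF1A (0.05) did not pass the test and EPAS1, which encodes HIF2 alpha, rose by 0.16, a call lost without C36 replicate 2 (limma adjusted p 0.0529).

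Of 31 glycolysis genes 11 fell and 2 rose. The falls included PFKFB4, a regulator of fructose bisphosphate (-0.30), SLC16A3, the lactate exporter (-0.30), HK2 (-0.24) and PGK1 (-0.18). The rises were PDK2, a kinase that inhibits pyruvate dehydrogenase (0.34, limma adjusted p 0.00178), and TXNIP. The glucose carrier SLC2A1 (-0.09) and GAPDH (-0.09) did not pass the test. Of 31 genes of fatty acid oxidation and lipid droplets 8 rose and 3 fell. PPARA, their nuclear receptor, rose by 0.37 (limma adjusted p 0.00174), PNPLA2, the lipase of lipid droplets, by 0.30, and CPT1A, the carnitine transferase, by 0.20. These 8 rises were 4 without C36 replicate 2 or MinE07 replicate 1 or 3 and 5 without C36 replicate 3, and the 3 falls were 1 without C36 replicate 1, MinE07 replicate 2 or 3 or vehicle replicate 2. Of 25 cholesterol genes 2 rose (8%) and 4 fell (16%) between the aptamers, against 8.97% and 11.1% of all tested genes. The 4 falls were 2 without C36 replicate 1 or MinE07 replicate 2 or 3. TM7SF2, a sterol reductase, rose by 0.48. Of 28 NRF2 target genes 8 rose and 2 fell, with AKR1C3 at 0.57, AKR1B10 at 0.44, FTH1 (ferritin) at 0.35, TXNRD1 at 0.29 and SRXN1 at -0.24. NUPR1, a stress-induced gene on the ATF4 list, was at 2.61, 2.35 and 2.55 FPKM against 1.60, 1.56 and 1.69 and rose by 0.50 (SE 0.056, limma adjusted p 0.000432), within a list of 30 where 3 rose and 6 fell (3 without MinE07 replicate 3).

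In the same descriptive ranking, ribosome production had the largest share of members called lower of the lists described. The list holds 50 genes that make and process ribosomal RNA and assemble subunits in the nucleolus. All 50 were tested, 34 fell (68%), 0 rose (0 also at an unadjusted limma p under 0.05), and the median was -0.17. NOP16 was at 22.7, 21.3 and 21.8 FPKM with MinE07, 28.6, 27.4 and 27.7 with C36 and 28.2, 27.3 and 25.8 with vehicle and fell by 0.34 (SE 0.039, limma adjusted p 0.000486). NOP2, a methyltransferase of ribosomal RNA, was at 9.94, 10.2 and 9.36 FPKM against 11.8, 12.3 and 12.1 and fell by 0.28 (SE 0.041, limma adjusted p 0.0016). DDX21, a nucleolar helicase, was at 34.9, 33.6 and 34.1 FPKM against 41.3, 42.6 and 41.1 and fell by 0.28 (SE 0.036, limma adjusted p 0.000781). In each of the 3 the MinE07 libraries lay below all C36 and vehicle libraries. PPAN had the largest fall of the list, 0.37. The transcription factor UBTF (-0.04) and the subunit POLR1A (-0.10) of the RNA polymerase I system did not pass the test. Of 79 cytosolic ribosomal protein genes, in contrast, limma called 0 (2 at an unadjusted p under 0.05), and their median was 0.02.

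The promoter windows of 2 of these genes are given because they hold CACGTG, the E-box that MYC and its relatives bind (capitals; the motif is its own reverse complement). NOP2 lies at chr12:6568242-6568541 on the minus strand and DDX21 at chr10:68956397-68956696 on the plus strand, in GRCh38.p14 as given by RefSeq.
NOP2: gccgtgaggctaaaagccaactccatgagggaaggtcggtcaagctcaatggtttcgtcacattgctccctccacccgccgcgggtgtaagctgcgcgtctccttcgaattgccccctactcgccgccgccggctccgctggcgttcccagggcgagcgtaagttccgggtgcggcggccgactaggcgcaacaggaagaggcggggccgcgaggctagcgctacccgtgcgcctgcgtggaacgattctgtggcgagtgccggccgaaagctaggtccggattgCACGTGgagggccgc
DDX21: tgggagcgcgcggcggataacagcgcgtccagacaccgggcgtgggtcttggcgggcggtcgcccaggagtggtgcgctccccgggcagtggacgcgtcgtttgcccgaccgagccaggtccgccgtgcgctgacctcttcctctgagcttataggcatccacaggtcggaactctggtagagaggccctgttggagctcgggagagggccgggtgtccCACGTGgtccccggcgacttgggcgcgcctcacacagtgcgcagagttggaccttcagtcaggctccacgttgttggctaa

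The motif was in 20 of the 43 ribosome biogenesis genes with a window (46.5%), against 12.7% of the tested genes with a window and 7.26% of all windows. It stood 35 bases after the start in NOP2 and 31 bases before it in DDX21. Of the 20 genes 14 fell and 6 (FBL, GAR1, GNL3, RCL1, UTP20 and UTP4) did not pass the test. On the whole list 34 of 50 fell (68%). The lysosome list, where 17 rose and 2 fell, held the motif in 12 of 36 genes (33.3%). Among the 12, only CTSA, CTSD and CTSF rose, and the rest did not pass the test. CACGTG is also part of the motif bound by TFEB.

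Lists of nucleotide, polyamine and protein synthesis also held more falls than rises. Of 38 genes of serine, one-carbon and nucleotide synthesis 18 fell and 1 rose, with a median of -0.10. PFAS, a purine synthesis enzyme, was at 10.9 ± 0.239 FPKM against 13.2 ± 0.106 and fell by 0.27 (SE 0.032, limma adjusted p 0.000607). CTPS1, PAICS and CAD fell by 0.23, 0.22 and 0.16. The gene that rose was TKT, of the pentose phosphate pathway (0.15, limma adjusted p 0.0107). The 18 falls were 11 without C36 replicate 2 or MinE07 replicate 3. In polyamine synthesis ODC1, the rate-limiting decarboxylase and a MYC target, was at 41.2, 42.3 and 42.7 FPKM against 52.7, 54.6 and 52.3 and fell by 0.33 (SE 0.032, limma adjusted p 0.000188), and SRM fell by 0.34, with 4 of 16 genes of the list lower (2 without C36 replicate 1 or 2 or MinE07 replicate 2) and 1, ASS1 (0.29), higher. Of 46 tested translation factors 15 fell and 1 rose, and of 23 aminoacyl-tRNA synthetase genes and their partners 8 fell and 1 rose. The largest fall was in EIF3J (-0.25) among the factors and in EEF1E1 (-0.39) among the synthetase genes. The 15 falls were 8 without C36 replicate 1 and 7 without MinE07 replicate 3, and the 8 were 5 without C36 replicate 2. Of 60 mitochondrial ribosome genes 15 fell and 0 rose, a count that was 6 without C36 replicate 1 or MinE07 replicate 3 and 7 without C36 replicate 2.

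Cytosolic chaperones fell while the small heat shock proteins rose. Of 33 tested genes 21 fell and 2 rose, with a median of -0.14. All 8 subunits of the chaperonin TRiC, which folds actin and tubulin, fell, by 0.12 to 0.48. CCT5 was at 81.4, 80.8 and 80.6 FPKM with MinE07, 99.4, 93.8 and 93.4 with C36 and 98.7, 97.9 and 95.4 with vehicle and fell by 0.24 (SE 0.031, limma adjusted p 0.00088). CCT8, with the largest fall (0.48), has further copies in the files. HSPA8 and HSPD1 fell by 0.19 and 0.15, and the stress-inducible HSPA1A (-0.07) and HSP90AA1 (-0.09) did not pass the test. HSPB1, which holds unfolded proteins without ATP, was at 1079, 1152 and 1096 FPKM against 948, 876 and 933 and rose by 0.27 (SE 0.049, limma adjusted p 0.0045), and HSPB8 rose by 0.20, a call lost without C36 replicate 2 or MinE07 replicate 1. The 21 falls were 13 without C36 replicate 1.

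Tubulin, the main client of TRiC, went the same way: of 11 tubulin genes 10 fell and 0 rose, by up to 0.31, with TUBA1C at 331 ± 8.68 FPKM with MinE07 and 412 ± 16.6 with C36 (-0.31, limma adjusted p 0.000768). The TRiC and tubulin subsets were picked after their values were seen, and TUBB has further copies in the files. Of 34 proteasome genes 10 fell and 0 rose, led by the assembly factor PSMG1 (-0.29), a count that was 6 without C36 replicate 1 or MinE07 replicate 1. Of 53 spliceosome genes 23 fell and 0 rose, with SRSF4 at -0.31 (limma adjusted p 0.000142) and SNRPA1 at -0.26, a count of 15 when C36 replicate 1 was left out and 14 when MinE07 replicate 3 was. Of 35 genes of homologous recombination and Fanconi repair 14 fell and 0 rose, with RAD54L at -0.31, a count that was 5 without C36 replicate 2, 8 without MinE07 replicate 2 or 3 and 9 without C36 replicate 3. At an unadjusted limma p under 0.05 still 0 genes of the proteasome, spliceosome and mitochondrial ribosome lists and 1 of the repair list were higher. Chaperones and proteins of the endoplasmic reticulum, in contrast, gave 1 rise and 0 falls among 30 (5 and 2 at an unadjusted p under 0.05), and 71 nuclear genes of the respiratory chain gave 0 rises and 1 fall, NDUFS8 (-0.18, limma adjusted p 0.0124).

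Of 17 ABC and multidrug transporter genes 2 rose and 1 fell (11.8% and 5.88%). Of 22 metal handling genes 3 rose and 4 fell (13.6% and 18.2%). Over all tested genes the shares were 8.97% and 11.1%. ABCG2, an efflux pump for drugs, was at 6.96, 6.38 and 6.42 FPKM with MinE07, 5.12, 5.33 and 5.12 with C36 and 5.92, 6.39 and 5.94 with vehicle and rose by 0.32 (SE 0.046, limma adjusted p 0.00152). Vehicle overlapped MinE07 here, and the difference between MinE07 and vehicle (0.10, limma adjusted p 0.128) was not called. SLCO4A1, a carrier of organic anions, fell by 0.50 (limma adjusted p 0.000545). Of 23 selenoproteins and glutathione peroxidases 5 rose and 1 fell (3 rises without C36 replicate 2 or MinE07 replicate 3). STMN3, which destabilises microtubules, was at 39.7, 41.8 and 38.8 FPKM against 53.7, 51.2 and 51.7 and fell by 0.38 (limma adjusted p 0.00192), in a list of 39 cilium and microtubule genes where 4 rose and 12 fell, 10 of the falls being the tubulins. Leaving out C36 replicate 2 or MinE07 replicate 1 gave 0 rises, leaving out MinE07 replicate 3 gave 1, and leaving out C36 replicate 1 or 3 gave 2.

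The vehicle libraries place both aptamers. MinE07 differed from vehicle in 3387 genes (23.9%), 1565 higher (11%) and 1822 lower (12.8%), and C36 differed from vehicle in 33 (0.232%), 6 higher (0.0423%) and 27 lower (0.19%), in the same fit. These comparisons share libraries with the one between the aptamers, so they are set side by side only. The median changes against vehicle with MinE07 were 0.19 for FOXO-responsive genes, 0.14 for complement and coagulation, 0.10 for lysosome, -0.20 for ribosome biogenesis and -0.17 for chaperones, and with C36 they were -0.05, -0.08, 0.01, -0.02 and -0.03. For hypoxia-inducible genes the medians against vehicle were -0.21 with MinE07 and -0.10 with C36, and for cholesterol synthesis -0.18 and -0.12. In these lists 22 of 33 and 15 of 25 genes were called lower with MinE07 than with vehicle, and C36 against vehicle called 2 of 33 and 0 of 25. Of 33 keratin and junction genes and 28 axon guidance genes, 10 each rose between the aptamers, and 6 and 5 against vehicle. Their medians against vehicle were 0.05 and 0.06. Of 13 lung lineage genes 5 rose and 3 fell against vehicle, with a median of -0.03. Lysosome genes went the other way, with 22 of 56 higher against vehicle and 17 between the aptamers. The count of 33 for C36 against vehicle was 234 without vehicle replicate 1, 17 and 3 without MinE07 replicates 1 and 3, and 0 or 1 without any C36 library or vehicle replicate 2 or 3, so this count rests on single libraries.

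H3255 carries L858R without T790M and H820 an exon 19 deletion with T790M, and both were treated in the same way in the same medium. An interaction term, in a fit of all 36 libraries, tested whether the aptamers differed by the same amount in 2 lines. The change in H1975 differed from that in H3255 in 1738 of 12182 genes tested in both (14.3%; 8.04% higher, 6.23% lower) and from that in H820 in 958 of 12619 (7.59%; 3.07% higher, 4.52% lower). Of the 1738, 56.3% were higher in H1975 relative to H3255 (67.8% after rescaling by medians of ratios), and of the 958, 40.4% were higher relative to H820 (51.5% after rescaling). The 958 were 630 when C36 replicate 2 of H1975 was left out and 611 when MinE07 replicate 3 of H1975 was. In the same fit MinE07 against C36 called 39.1% of genes in H3255 (16.9% higher, 22.2% lower) and 0.119% in H820, where 0.0396% were higher and 0.0792% lower. H3255 and H820 are other tumours with other backgrounds, so genotype and line cannot be told apart.

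Some changes differed between H1975 and H3255 by less than their error. PIK3IP1 changed by 0.89 and 0.91 (difference -0.01, SE 0.071, limma adjusted p 0.942), CLIC3 by 0.78 and 0.76, ID2 by 0.48 and 0.53, and NOP2 by -0.28 and -0.29. A missed threshold does not show that the lines act alike, and for PIK3IP1 the difference plus or minus 2 SE runs from -0.15 to 0.13. Others were larger in H3255: YPEL2 changed by 1.01 there against 0.42 in H1975 (difference -0.59, limma adjusted p 1.19e-05) and CLU by 0.95 against 0.46 (difference -0.49, limma adjusted p 2.39e-09). Larger in H1975 were SELENOP (1.22 against 0.76, difference 0.46, limma adjusted p 0.00168) and TJP3 (0.82 against 0.42, difference 0.40, limma adjusted p 0.00293).

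TMEM86A rose by 0.95 in H1975 and was 0.10 in H3255 (difference 0.84, limma adjusted p 1.01e-08), TNFSF10 rose by 0.81 and was -0.02 (difference 0.83, limma adjusted p 0.000606), and AMOTL1 fell by 0.58 and was 0.01 (difference -0.59, limma adjusted p 0.000104). Opposite changes, called in both lines, were seen for CTSH, which fell by 0.25 in H3255 (difference 0.87, limma adjusted p 1.07e-08), and for ITGB4, which fell there by 0.25 (difference 0.64, limma adjusted p 7.70e-09). By list, the hypoxia and glycolysis falls were deeper in H3255: over 28 and 30 genes tested in both lines the medians were -0.45 and -0.36 there against -0.07 and -0.09 in H1975, with 17 and 16 genes whose difference was called in that direction. FOXO-responsive genes had a median of 0.23 in H3255 against 0.21 in H1975 over the 21 genes tested in both lines, and in H3255 12 of them were called higher and 3 lower. Of the 21, the change in H1975 was higher than that in H3255 in 5 and lower in 1. Ribosome biogenesis had a median of -0.17 in both lines over 50 genes, and 4 of the 50 differed, all of them lower in H1975 relative to H3255. In complement and coagulation 9 of 15 genes rose more, or fell less, in H1975 and 1 less.

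In H820 the changes were smaller, and limma called few genes there. PIK3IP1 changed by 0.27 there (difference 0.63, limma adjusted p 1.93e-06), SELENOP by 0.20, CCN5 by 0.17 (difference 1.05, limma adjusted p 1.00e-06) and TMEM158 by -0.05. Ribosome biogenesis had a median of -0.02 over 50 genes in H820, and 20 of the 50 were lower in H1975 relative to H820. For FOXO-responsive genes the H820 median was 0.04 over 23 genes, and 9 rose more in H1975. Both differences draw on the same H1975 libraries. In H820 the summed FPKM of MinE07 replicates 1 and 2 (362928 and 370219) was below that of its other libraries (392161 to 408809). The part of this in the small H820 changes was not tested.

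**Figure D4:**
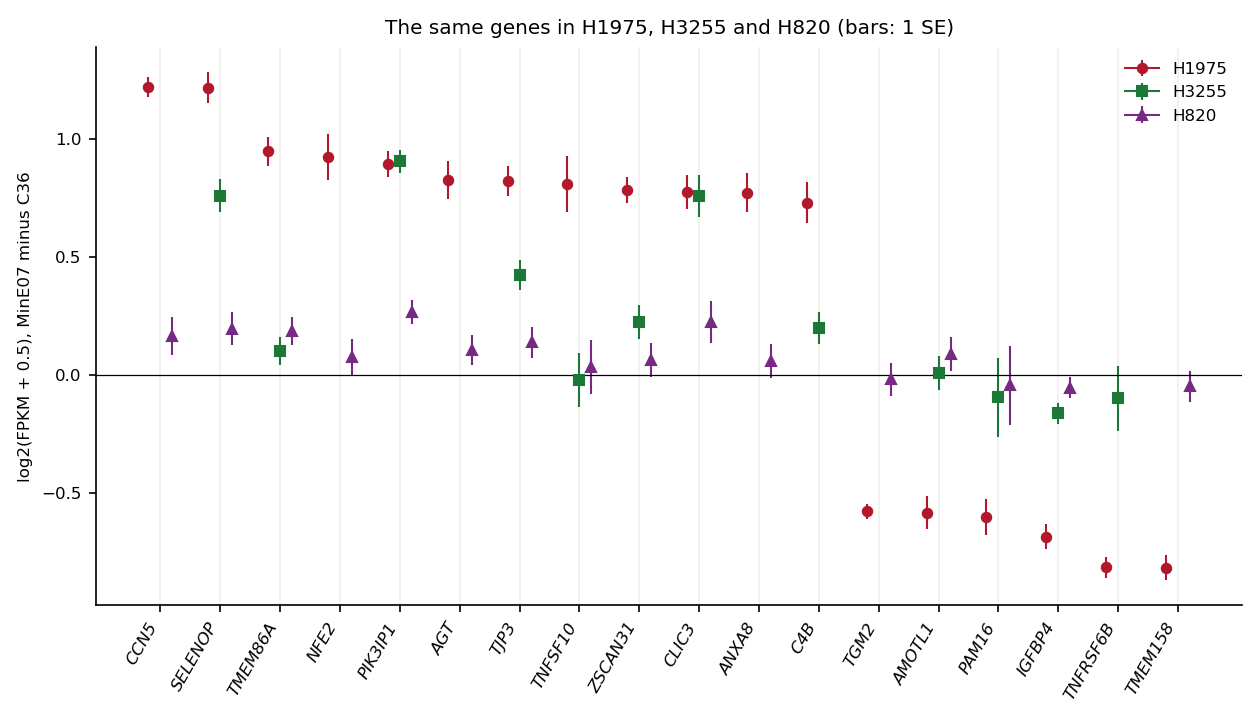
Change between MinE07 and C36, log2(FPKM + 0.5), of the genes with the largest changes in H1975 that were tested in at least 1 of the other lines; points are estimates and bars are 1 SE. PIK3IP1 and CLIC3 sit at nearly the same height in H1975 and H3255, TMEM86A and TNFSF10 rise further in H1975 than in either other line, and the H820 points lie between -0.05 and 0.27.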

How the data were processed

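RNA-seq libraries of 4 lung cancer lines were deposited as FPKM per gene, 1 table per library, and the 9 H1975 libraries are described here, with H3255 and H820 for comparison. Per the submitters' processing notes, the authors used HISAT2, Cuffdiff and the builds GRCh38.p12 and hg38; versions, roles and filter settings were not given in the sources used here. FPKM is scaled by gene length and library size, so depth is known only in relative terms, and Cuffdiff may divide reads between overlapping or near-identical genes.

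Genes with a mean of at least 1 FPKM over the 6 MinE07 and C36 libraries were fitted as log2(FPKM + 0.5) with limma 3.58.1, under R 4.3.3 and with statmod 1.5.0. Moderation was robust and followed the intensity trend, and 9 libraries gave 3 group means. P-values were adjusted by Benjamini and Hochberg over all tested genes, and a gene was called under 0.05. "Rose", "fell", "higher" and "lower" refer to calls. Differences between lines came from a fit of 36 libraries with 12 group means. The fit was tested on simulated data. Values after ± are SD over n = 3 libraries. The p-values weigh a group difference against a moderated spread over the 9 H1975 libraries. For other lines and differences between lines that spread came from 36 libraries.

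Named were EGFR, ERBB2 and ERBB3, the 12 called genes with the largest change in each direction outside the lists kept apart (no overlap between the aptamers, same sign against vehicle, no numbered copies, pseudogenes or small RNAs), up to 3 called members a direction of each list, and other members to show how a list divides. Some genes that this rule covers are not reported here. The gene lists and members were chosen with earlier results of these data known. Alternatives were other pseudocounts, filters, scalings, moderation, sets of libraries and a replicate block. Promoter windows (250 bases before to 50 after a start) are RefSeq's, GRCh38.p14, and no file coordinates were used. Tables were handled in Python 3.11.15 with pandas 2.3.3.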

Additional observations from a re-analysis of the deposited data

Results flagged for a closer look

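The change between MinE07 and C36 in H1975 was set against the same change in H3255 and H820, gene by gene, by the interaction term of the 36-library limma fit. Values below are the H1975 change minus the change in the other line on the log2(FPKM + 0.5) scale, all past an adjusted p of 0.05 over all genes tested in both lines, and 3 libraries of each aptamer stand behind each change. No cause was tested. The genes were chosen for large changes in H1975 and the differences use those same libraries, which favours a difference, so the counts below describe the chosen genes only.

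Of the 15 genes named for their size or as ERBB receptors that could be tested against H3255, 10 differed, where 14.3% of all genes tested in both lines did. SELENOP (0.46), TMEM86A (0.84), TJP3 (0.40), TNFSF10 (0.83), ZSCAN31 (0.56), C4B (0.53) and EGFR (0.20) were higher in H1975 relative to H3255. TNFRSF6B (-0.72), IGFBP4 (-0.52) and AMOTL1 (-0.59) were lower.

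Of 19 such genes testable against H820, 16 differed, where 7.59% of all genes tested in both lines did. CCN5 (1.05), SELENOP (1.02), TMEM86A (0.76), NFE2 (0.85), PIK3IP1 (0.63), AGT (0.72), TJP3 (0.68), TNFSF10 (0.77), ZSCAN31 (0.72), CLIC3 (0.55), ANXA8 (0.71) and ERBB3 (0.25) were higher in H1975 relative to H820. TMEM158 (-0.77), IGFBP4 (-0.63), AMOTL1 (-0.67) and TGM2 (-0.56) were lower.

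Of 159 other genes that the naming rule takes from lists and that were tested in both lines, 16 (10.1%) were called in H1975 and in H3255 in opposite directions, with a difference past the threshold. Over all genes called in H1975 and tested in both lines these were 131 of 2452 (5.34%). Rising in H1975 and falling in H3255 were SKIL (0.49), LGR4 (0.42), ITGB4 (0.64), SEMA5A (0.93), SEMA6B (0.47), TKT (0.38), EPAS1 (0.60), TXNRD1 (0.53), CTSH (0.87) and SLCO2A1 (0.64). Falling in H1975 and rising in H3255 were LRIG1 (-0.37), WNT9A (-0.53), SLC6A9 (-1.10), a glycine carrier, SLC1A5 (-0.46), the main glutamine carrier, CBR1 (-0.25) and EIF4EBP1 (-0.45), an inhibitor of cap-dependent translation. In H1975 the calls of SKIL, SEMA5A, SEMA6B, EPAS1, SLCO2A1, LRIG1, CBR1 and EIF4EBP1 were lost under at least 1 alternative setting.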

How the results depend on the processing

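The 5287 values recorded were call counts and changes of named genes, main setting included, and 0 of the gene changes reversed in sign. Counts cannot reverse, and most named genes were chosen because they were called. List medians were not among these values, and some changed sign with a mean of at least 5 FPKM. The median of the CCN family went from 0.13 to -0.08 and that of Notch from 0.05 to -0.03. All 24 genes named for the size of their change kept their call in every alternative in which they were tested (18 or 19), as did 166 of 238 other called genes that the naming rule covers. The count for MinE07 against C36 was 1820 with no filter and 1737 to 3279 without single libraries, against 2851, and 44.7% of called genes were higher, or 37.7% after rescaling. The count for MinE07 against vehicle was 2177 with no filter and 2384 to 3447 without single libraries, against 3387. The count for C36 against vehicle, 33, was 284 in the fit of 36 libraries, 105 with a mean of at least 5 FPKM, 82 after rescaling, 17 with neither trend nor robust moderation, 0 with no filter and 0 to 234 without single libraries. The difference from H3255 held 1127 genes with a mean of at least 5 FPKM and 1439 to 1654 without single H1975 aptamer libraries, against 1738. The difference from H820 held 611 to 850 without single H1975 aptamer libraries, against 958. Libraries of H3255 and H820 were not left out. No filter tests 39233 genes, so its adjustment is stricter; other causes were not tested.

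With the replicate number as a block, 2468 genes were called for MinE07 against C36, 2958 for MinE07 against vehicle, 0 for C36 against vehicle, and 1597 and 789 for the differences from H3255 and H820. Libraries with the same number mostly did not deviate together (correlations -0.109 to 0.194, the highest for C36 and vehicle replicate 3). Not every library was closest to its own number. The labels do not say what a shared number marks, and weak correlations cannot show that nothing is shared. List counts of 1 to 3 often lost or gained a gene when a single library was left out. Values are FPKM without counts, so counting error could not be given, and genes near 1 FPKM have compressed changes.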
